A study of Mus musculus with 7 samples.

Results

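Aminoacyl-tRNA synthetases are the enzymes that join each amino acid to its tRNA. The 36 synthetase genes described here were chosen by symbol, 20 that encode cytosolic enzymes or enzyme subunits and 16 that encode mitochondrial enzymes and carry a name ending in 2. All 36 were found among the 23583 gene entries listed in both RNA tables. The data came from primary dermal fibroblasts of female FVB/N mice, kept in culture for 8 days and either left untreated or given thapsigargin for 3 h. Thapsigargin inhibits the pump that fills the endoplasmic reticulum with calcium and so causes stress there. Untreated cells gave 1 RNA library, 1 immunoprecipitation of the bZIP factor CEBPB and 2 bisulfite libraries whose CpG methylation was held as 1 pooled percent per cytosine. Treated cells gave 1 RNA library, 1 CEBPB immunoprecipitation and 1 immunoprecipitation of ATF4, another bZIP factor. With 1 library per condition no difference between conditions has a replicate check, no p-value is given, and intervals cover counting error only. Nothing in the labels says how many animals gave the cells.

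Mammalian cells keep separate sets of synthetases for cytosolic and mitochondrial translation, both encoded in the nucleus, and a few genes, among them Gars and Kars, supply both compartments. Several cytosolic enzymes are held together in the multisynthetase complex: those for aspartate (Dars), isoleucine (Iars), lysine (Kars), leucine (Lars), methionine (Mars), glutamine (Qars) and arginine (Rars), and the fused glutamate and proline enzyme (Eprs). In the integrated stress response, uncharged tRNA or unfolded protein leads to phosphorylation of the initiation factor eIF2 and to translation of ATF4, which is known for its action on genes of amino acid supply and tRNA charging. ATF4 pairs with C/EBP factors such as CEBPB on a composite DNA element, of which TGATGCAA is the common core.

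The deposited peaks at cytosolic synthetases held this word often, so the element is shown first, within its 30-base surroundings on mm9. Each run reads 5′ to 3′ on the strand named, with the word in capitals. The first 3 lay in peaks of all 3 lists (ATF4, CEBPB of untreated cells, CEBPB of treated cells), Cars and Sars stand for words in 2 lists, and Gars shows the gene with the highest ATF4 score, whose peak held a variant of the word.
Iars (chr13:49777495-49777524, minus strand): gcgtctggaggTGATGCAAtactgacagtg
Mars (chr10:126748694-126748723, plus strand): ggagcccacgcTGATGCAAtcggaaccggc
Yars (chr4:128867139-128867168, plus strand): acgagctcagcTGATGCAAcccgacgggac
Cars (chr7:150785950-150785979, plus strand): cttccagaatcTGATGCAAccgcggcgccg
Sars (chr3:108247108-108247137, minus strand): ctcgggtagtcTGATGCAAtaggtctgcaa
Gars (chr6:54987954-54987983, minus strand): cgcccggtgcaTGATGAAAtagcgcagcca

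In the whole series, the confidence bounds of the RNA tables implied 53914231 fragments in genes of the untreated and 78941806 in genes of the treated library. Among the synthetases the implied number ran from 145 fragments (Rars2, treated) to 143433 (Lars2, treated), and in the untreated library the lowest was 157 (Pars2). RNA of the factors and of a target gene was measured alongside: Atf4 went from FPKM 208 to 849, Cebpb from 33.4 to 211 and Ddit3, a transcription factor gene induced by ATF4, from 82.9 to 735. Asns, the asparagine synthetase gene and a known ATF4 target, stood at 75.8 and 67.9. All 10 fibroblast markers were above FPKM 1 in the untreated library, and their summed FPKM went from 16040 to 4094. The 6 macrophage and leukocyte markers summed to 1020 and 1184, ranged from 4.41 to 880 in the untreated and from 3.26 to 951 in the treated library, and the 6 keratinocyte markers summed to 23.9 and 1.54. All 5 endothelial markers stayed below 1 in both libraries. The part of these cells and of this shift in the synthetase values was not tested, and in bulk RNA fewer cells of a type and less RNA per cell cannot be told apart.

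Cytosolic synthetases were the more abundant class, and 10 of the 20 were lower by the measure defined below, against 28.2% of expressed entries, though only 1 of 20 when set against genes of similar exon junction density (10.1% of entries). FPKM, the number of fragments divided by transcript length and by the size of the library, sets genes on a scale per length. The median FPKM of the 20 cytosolic genes was 39.4 untreated and 19.4 treated, against 5.78 and 3.55 for the 16 mitochondrial genes and 9.91 and 6.52 for the 12207 expressed entries, defined as reaching FPKM 1 in either library. All 36 synthetases were expressed by this measure. In the untreated library the highest were Gars (glycine) at FPKM 111, Nars (asparagine) at 107, Aars (alanine) at 89.6, Sars (serine) at 86.1 and Eprs at 71.8. The lowest cytosolic gene untreated was Iars at 23.4, which no mitochondrial gene but Lars2, at 24.7, exceeded. In the treated library the order of the cytosolic genes was led by Nars at 104, followed by Gars at 59.0, Aars at 56.0 and Tars (threonine) at 50.4.

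The change of a gene is given as log2(FPKM + 1) of the treated minus the untreated library, a scale that understates changes of low genes, and a gene is counted as higher or lower at a difference of 1 or more. The median change over all expressed entries was -0.52, so values below are best read against that level. Of all expressed entries 28.2% were lower and 6.02% higher. Among cytosolic synthetases 10 of 20 were lower and 0 higher, with a median change of -0.96. Among mitochondrial synthetases 6 of 16 were lower and 1 was higher, with a median change of -0.50. Any value below 0 was found in 18 of 20 cytosolic and 11 of 16 mitochondrial genes, against 72.6% of expressed entries, so the mitochondrial count was near the level of all genes.

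**Figure D1:**
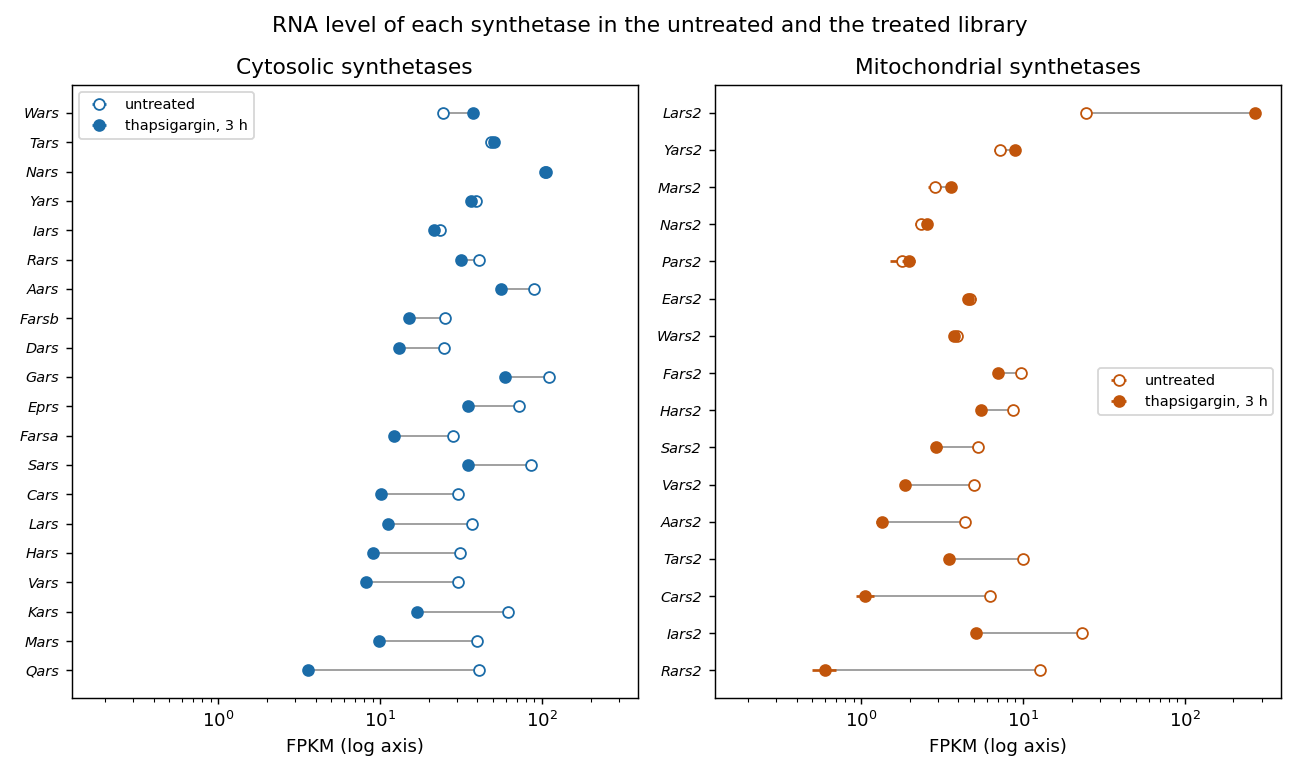
RNA level of each synthetase in FPKM on a log axis, cytosolic genes on the left and mitochondrial genes on the right, ordered by change; open circles are the untreated and filled circles the treated library, and bars are the deposited confidence bounds, mostly narrower than the symbols. Qars and Rars2 fell farthest to the left, from 40.7 to 3.58 and from 12.7 to 0.600, and Lars2 moved to the right, from 24.7 to 271.

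Qars, the glutamine enzyme (chr9:108410336-108418272), had FPKM 40.7 untreated and 3.58 treated, a ratio of untreated to treated of 11.4 (95% counting interval 10.7 to 12.1) and the lowest change of the 36, -3.19. Within the multisynthetase complex it was followed by Mars, at 39.8 and 9.89, Kars, at 61.4 and 17.1, and Lars, at 36.8 and 11.2. These 3 had changes of -1.91, -1.79 and -1.63. Eprs (71.8 and 34.9, change -1.02) stood just past the threshold and Dars (24.8 and 13.2, change -0.87) just short of it. Rars, at 40.7 and 31.8, and Iars, at 23.4 and 21.7, were less reduced, with ratios of treated to untreated of 0.782 (0.756 to 0.809) and 0.927 (0.901 to 0.955). The 8 enzymes of the complex had a wider range of changes than the other cytosolic genes, with a median change of -1.32 and 5 of 8 lower, against 28.2% of expressed entries. On the junction-adjusted scale explained below, their median was -0.15, with 1 of 8 lower (10.1% of entries) and 1 higher (12.0%), and their median junction density was 6.85 per kb against 5.68 for the other cytosolic genes.

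The 12 cytosolic genes outside the complex had a median change of -0.80, with 5 of 12 lower (28.2% of expressed entries). Their median adjusted change was 0.29, with 0 of 12 lower (10.1% of entries) and 2 of 12 higher (12.0%). The 5 lower as deposited were Vars (valine; FPKM 30.2 and 8.20, change -1.76), Hars (histidine; 31.2 and 9.10, change -1.67), Cars (cysteine; 30.2 and 10.1, change -1.49), Sars (86.1 and 34.9, change -1.28) and Farsa (28.2 and 12.2, change -1.15). Farsa encodes the alpha subunit of the phenylalanine enzyme, and its partner Farsb, the beta subunit, was less reduced, at 25.3 and 15.1 with a change of -0.71. Gars, at 111 and 59.0, had a change of -0.90, and Aars, at 89.6 and 56.0, of -0.67. Nars (107 and 104) and Yars (tyrosine; 39.0 and 36.8) were close to level, with ratios of treated to untreated of 0.977 (0.955 to 0.999) and 0.942 (0.916 to 0.969). Only 2 cytosolic genes had a positive change in these libraries. Tars stood at 48.2 and 50.4 (ratio 1.05, interval 1.02 to 1.07), and Wars, the tryptophan enzyme, at 24.4 and 37.7 (ratio 1.55, interval 1.49 to 1.61). Neither passed the threshold.

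Lars2, the mitochondrial leucine enzyme (chr9:123276058-123371782), was the 1 synthetase counted as higher. It had FPKM 24.7 untreated and 271 treated, a ratio of 11.0 (10.7 to 11.3) and a change of 3.40. Of 76 windows of 100 bp along its transcript, 6 had a near-identical copy elsewhere in the genome, and all 6 lay in its last exon of 1166 bp. The tables give no value per exon, so the part of this exon in the rise was not tested.

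The 6 mitochondrial genes counted as lower were led by Rars2 (arginine; chr4:34562207-34607416), at FPKM 12.7 and 0.600 with a ratio of untreated to treated of 21.2 (17.9 to 25.1). Iars2 (isoleucine) stood at 23.2 and 5.15 and Cars2 (cysteine) at 6.29 and 1.06, with changes of -1.98 and -1.82. Tars2 (threonine), Aars2 (alanine) and Vars2 (valine) went from 10.0 to 3.48, from 4.41 to 1.34 and from 5.01 to 1.86, with changes of -1.30, -1.21 and -1.07. Sars2 (serine; 5.27 and 2.92), Hars2 (histidine; 8.73 and 5.51) and Fars2 (phenylalanine; 9.77 and 7.06) were lower by less than the threshold, with changes of -0.68, -0.58 and -0.42. The remaining 6 lay between -0.04 and 0.27. Yars2 (tyrosine) went from 7.25 to 8.96 and Mars2 (methionine) from 2.85 to 3.62, with ratios of treated to untreated of 1.24 (1.12 to 1.37) and 1.27 (1.15 to 1.40). The ratio intervals of Pars2 (proline; 1.10, interval 0.917 to 1.32, from 157 and 474 fragments), Nars2 (asparagine; 2.34 and 2.56), Ears2 (glutamate; 4.69 and 4.60) and Wars2 (tryptophan; 3.89 and 3.77) all included 1, so their differences were not detectable at this depth.

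Cytosolic and mitochondrial enzymes of the same amino acid formed 13 pairs. The cytosolic partner had the higher FPKM in 13 of 13 pairs untreated, by a median factor of 5.39, and in 12 of 13 treated, by a median factor of 9.55. The pairs ranged untreated from 1.01 (Iars over Iars2) to 45.6 (Nars over Nars2). Rars over Rars2 went from 3.21 to 53.1 and Iars over Iars2 from 1.01 to 4.21, whereas Mars over Mars2 went from 14.0 to 2.73 and Hars over Hars2 from 3.58 to 1.65. Lars was 1.49 times Lars2 untreated and 0.0415 times Lars2 treated, the 1 pair that changed order. The cytosolic partner had the higher change in 6 of 13 pairs, so neither class was lower throughout.

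Across all genes the change went with junction density, the exon junctions of a gene per kb of its coding transcripts: Spearman's rho was -0.42 over 8746 entries at FPKM 5 or more in either library, and -0.59 over the 36 synthetases, descriptions over genes of the same 2 libraries. Synthetases are rich in exons, with a median of 6.63 junctions per kb in the cytosolic and 4.54 in the mitochondrial class against 3.39 over expressed entries. Expressed entries with 4 to 8 junctions per kb had a median change of -0.87. The cause of this relation was not tested. Each gene was therefore also set against the median of genes with similar density that reached FPKM 5 in either library, which gives a junction-adjusted change.

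**Figure D2:**
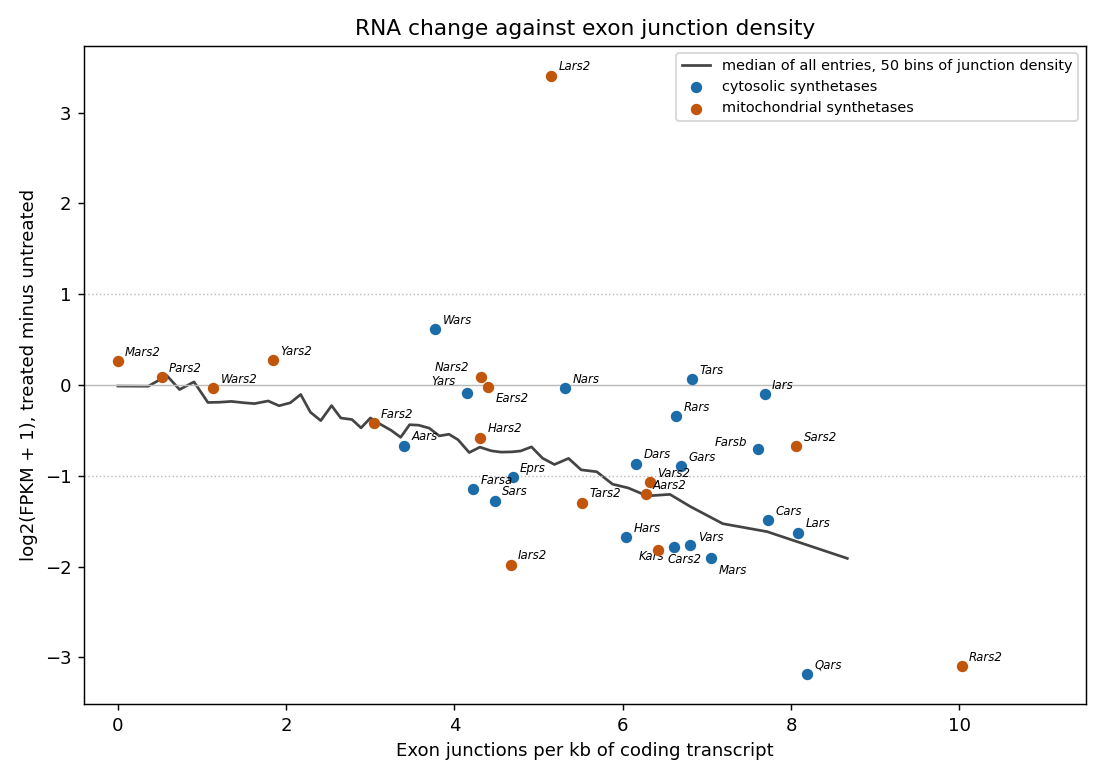
Change in log2(FPKM + 1), treated minus untreated, against junction density for the 36 synthetases (blue cytosolic, orange mitochondrial); the line joins the medians, in 50 bins of junction density, of the 8746 entries that reach FPKM 5 in a library, and dotted lines mark changes of 1 and -1. Iars, Tars and Wars lie 1 or more above the line and Qars, Rars2 and Iars2 1 or more below it, with Lars2 alone at the top.

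On the adjusted scale 12.0% of expressed entries were higher and 10.1% lower. Of the cytosolic synthetases 3 of 20 were higher and 1 of 20 lower, and the median adjusted change was 0.06. Of the mitochondrial ones 1 of 16 was higher and 2 of 16 lower, with a median of 0.13. The 3 higher cytosolic genes were Iars at 1.51, Tars at 1.40 and Wars at 1.17, and the lower one was Qars at -1.28. Lars2 stood at 4.28, Iars2 at -1.24 and Rars2 at -1.19. Farsb, Rars and Nars followed among cytosolic genes with adjusted changes of 0.91, 0.86 and 0.78. At Kars, Sars and Hars the adjusted change was -0.58, -0.55 and -0.54. The direction of the class medians therefore depended on the scale: both were below 0 as deposited and above 0 after the adjustment, and the cytosolic share counted as lower went from 10 of 20 to 1 of 20.

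A few of these values rest on transcripts that share sequence or exons with other loci. In Iars, on chromosome 13, 27.6% of the 100-bp windows had a near-identical copy, all on chromosome 1. In Iars2 15.7% had a match outside its deposited locus, all on chromosome 1, where Iars2 itself lies. Annotated exons of Iars2 more than 1 kb beyond that locus would count as such matches, and this was not tested. Exons of Iars2 overlapped those of Rab3gap2 on the other strand over 30.3% of their bases, Farsb overlapped Sgpp2 over 10.8%, and Hars overlapped Hars2 over 9.81%. These overlaps are of annotated exons, and whether the shared bases lie within the deposited loci was not tested. Mars and Ddit3 run toward each other on chromosome 10 and share 68 exonic bases. How the authors' counting treated such reads is not given in the sources used here, so the levels of these genes are less certain than their intervals show.

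ATF4 peaks lay within 1 kb of the locus in 15 of 20 cytosolic and 9 of 16 mitochondrial synthetases, against 53.2% of 11999 expressed entries placed on the annotation. Within 1 kb of the gene start the counts were 15 and 8, against 47.7%. The cytosolic class thus stood above the level of expressed genes and the mitochondrial class near it. Hars and Hars2 start close together on opposite strands and share 1 of these peaks, which counts for both. Kars, Wars, Yars, Vars, Fars2, Rars2 and Ears2 also have the start of another gene within 1 kb of their peak (Terf2ip, Wdr25, S100pbp, D17H6S56E-5, Lyrm4, Orc3 and Ubfd1, in that order), so such a peak cannot be given to the synthetase alone.

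The authors' score ranks peaks within a list. The ATF4 peak over the start of Gars (chr6:54987800-54988340) had a score of 175 and ranked 5 of 10109. Yars (score 75.4, rank 33), Mars (69.3, rank 36), Iars (40.6, rank 88), Cars (39.2, rank 93) and Eprs (36.0, rank 105) came next among the synthetases. Of expressed entries 0.275% had a peak from the highest 1% of ATF4 scores within 1 kb of their start, and 5 of 20 cytosolic and 0 of 16 mitochondrial synthetases did. That 1% limit was chosen after these ranks were seen. The strongest ATF4 peaks at starts of mitochondrial members were those of Mars2 (score 12.2, rank 562) and Rars2 (11.2, rank 736). The remaining cytosolic peaks at starts were weaker, from Vars (11.7, rank 641) and Wars (8.45, rank 1735) to Hars (3.32, rank 9035) and Rars (2.74, rank 9691).

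CEBPB peaks were at many cytosolic and few mitochondrial synthetases. In untreated cells they lay within 1 kb of the locus in 10 of 20 cytosolic and 1 of 16 mitochondrial synthetases, against 17.8% of expressed entries, and within 1 kb of the start in 9 and 0, against 4.88%. In treated cells the counts were 14 and 2 at loci, against 16.3%, and 12 and 1 at starts, against 3.89%. Both lists had a peak at the starts of 8 cytosolic genes: Aars, Eprs, Iars, Lars, Mars, Nars, Sars and Yars. Cars had one only in the list of untreated cells, and Farsb, Gars, Tars and Wars only in the list of treated cells. Scores of the CEBPB lists lie on different scales and each list is 1 library, so a peak in only 1 of them was not tested as a change. The highest CEBPB ranks in treated cells were in an intron of Sars, centred 1059 bp past the start (score 55.2, rank 46 of 7861), and at the start of Iars (35.4, rank 144), followed by Aars (19.7, rank 439), Nars (15.7, rank 654) and Yars (15.0, rank 716).

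Peaks of all 3 lists stood within 1 kb of 6 cytosolic starts, those of Aars, Eprs, Iars, Mars, Sars and Yars. The ATF4 peak at the start overlapped a CEBPB peak of each list at Aars, Iars, Mars and Yars. At Eprs and Sars it overlapped no CEBPB peak, so these genes had no shared site. For combinations of lists, here and for the CEBPB lists above, no share of expressed entries is given. Such counts are therefore not set against a background level. Lars and Nars had CEBPB peaks and no ATF4 peak in these lists. At Hars, Kars, Rars and Vars the start had an ATF4 peak and no CEBPB peak. Qars and Farsa had no peak of any list within 1 kb of their locus, and Dars had only a CEBPB peak of treated cells past its end (score 2.94, rank 7738). Among mitochondrial genes Aars2, Iars2, Pars2, Sars2, Tars2, Vars2 and Wars2 had none. A missing entry in a list does not show that the factor was absent.

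**Figure D3:**
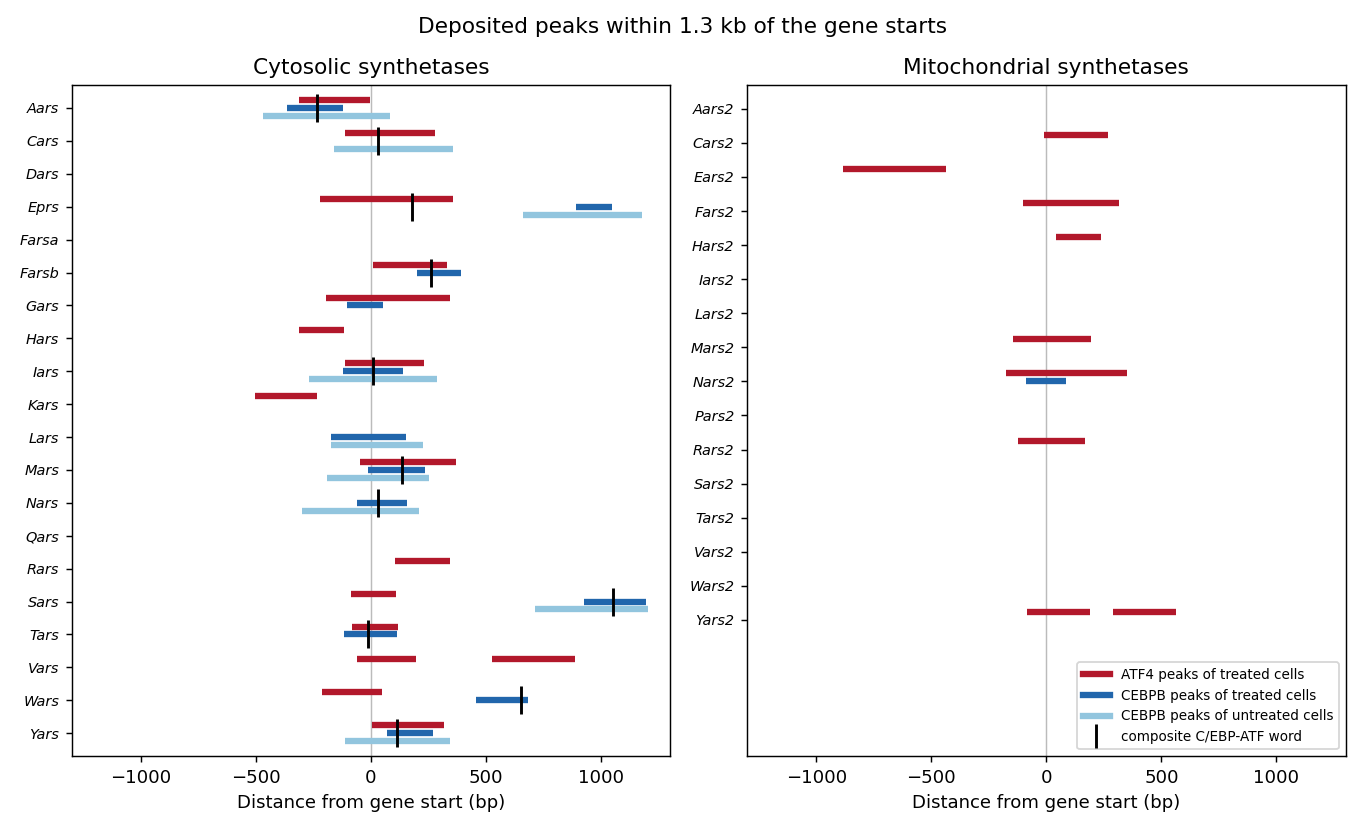
Deposited peaks around the gene starts of cytosolic (left) and mitochondrial (right) synthetases, by distance from the start in bp along the direction of transcription; bars are ATF4 peaks of treated cells (red), CEBPB peaks of treated cells (dark blue) and CEBPB peaks of untreated cells (light blue), and black ticks mark the composite word within a peak. All 11 ticks are in cytosolic genes, and CEBPB bars appear at 1 mitochondrial start, that of Nars2.

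The word TGATGCAA, searched on both strands, was in 8 of 19 ATF4 peaks at cytosolic synthetases and in 0 of 10 at mitochondrial ones, the peak shared by Hars and Hars2 being counted with the former, while 0.743% of 10099 ATF4 peaks on assembled chromosomes held it. It was in 7 of 11 CEBPB peaks of untreated cells and 9 of 14 of treated cells at cytosolic synthetases, against 7.76% and 7.58% of those lists, and in none of the 3 CEBPB peaks at mitochondrial ones. Of the CEBPB peaks at starts of expressed entries, 8.26% (untreated) and 11.7% (treated) held it. The peaks at synthetases held 11 words in 11 genes: Aars, Cars, Eprs, Farsb, Iars, Mars, Nars, Sars, Tars, Wars and Yars. The farthest lay 1054 bp after the start (Sars), and 4 were on the strand of the gene. By the annotation, the words of Aars, Cars, Iars, Mars and Nars lie in untranslated exon sequence, those of Eprs, Farsb, Sars and Wars in an intron, that of Yars in a coding exon and that of Tars 12 bp before the start. The Aars word is 234 bp before the start used here for distances, in an annotated exon that reaches beyond the deposited locus. Each word but that of Nars, whose next base is not given here, was seen to be followed by C or T. Over all peaks 73.1% of words in the ATF4 list were, with 72.0% in the CEBPB list of untreated and 72.9% in that of treated cells. The words TGACGCAA, CGATGCAA, TGACGTCA and TTGCGCAA, each searched on both strands, were in no peak at a synthetase of any of the 3 lists. In that order they were in 0.762, 0.129, 1.88 and 0.218% of all ATF4 peaks. In the CEBPB lists they were in 0.217 to 4.20% of all peaks, and in up to 11.1% of those at starts of expressed entries. A count of 0 among so few peaks is therefore not set apart from these levels.

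At Gars, the ATF4 peak held TGATGAAA 26 bp before the start, on the minus strand. With N for any base, TGATGNAA, a form chosen after these peaks were seen and one that includes TGATGCAA, was in 9 of 19 cytosolic and 0 of 10 mitochondrial ATF4 peaks, against 1.75% of the list. In CEBPB peaks it was in 9 of 11 (untreated) and 11 of 14 (treated) at cytosolic synthetases, and in 1 of 1 (Fars2) and 0 of 2 at mitochondrial ones, against 16.1% and 12.8% of those lists. Of all ATF4 peaks 5.30% overlapped a CEBPB peak of either list, and 9.53% of those held TGATGCAA. At cytosolic synthetases 8 of 19 ATF4 peaks overlapped one, and 7 of these 8 held the word. At mitochondrial synthetases 2 of 10 overlapped one, at Nars2 and Lars2, and neither held it. In RefSeq promoters, from 250 bases before to 50 after a start on the table's own build, 27 synthetases could be matched and 4 held the word, Aars, Iars, Tars and Yars, against 0.895% of 32851 promoters. A synthetase counted if any of its promoters held the word, whereas the share is over single promoters, so the units differ.

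RNA changes of genes with and without these peaks overlapped. Cytosolic genes with an ATF4 peak at the start had a median change of -0.90 and a median adjusted change of 0.13 (15 genes), and those without one -1.15 and -0.01 (5 genes). The 11 cytosolic genes with the word in a peak had a median change of -0.67 and an adjusted median of 0.66, with all 3 that were higher on the adjusted scale, Iars, Tars and Wars, among them. The grouping mattered: the adjusted median was 0.39 for the 8 with the word in an ATF4 peak and -0.09 for the 7 whose loci had peaks of all 3 lists. The 9 cytosolic genes without the word had -1.63 and -0.41. On the adjusted scale 0 of these 9 were higher (12.0% of entries) and 1 was lower, Qars (10.1%). Mars, with the ATF4 peak of rank 36 and the word in all 3 lists, had the second lowest change of the cytosolic genes before adjustment, at FPKM 39.8 and 9.89. Its adjusted change was -0.38, short of the threshold. Gars, with the highest ATF4 rank, had an adjusted change of 0.45. Over expressed entries on the annotation the median adjusted change was 0.05 with an ATF4 peak at the start and -0.0046 without.

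Peaks away from starts were few. Lars2 had none at its start. Its ATF4 peak (chr9:123370928-123371285, score 15.0, rank 313) and its CEBPB peak of treated cells (score 12.3, rank 985) both lay in the last exon. All 6 copied windows of the Lars2 transcript had a base inside that ATF4 peak. The part of reads from the copies in the peak was not tested. Other ATF4 peaks outside starts lay in an intron of Mars (rank 8280), an exon near the end of Vars (rank 6162), an intron of Nars2 (rank 6436) and the 3′ end of Aars (rank 2421).

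CpG methylation of untreated cells was low at the starts of both classes. Averaged over CpGs within 1 kb of the start, the median was 5.29% in the cytosolic and 6.36% in the mitochondrial class, against 5.53% over expressed entries. It was under 10% in 17 of 20 cytosolic and 10 of 16 mitochondrial genes, against 69.0%. Over the rest of the locus, with 1 kb at the far end, the medians were 80.3% and 81.2%, against 76.6%. The start was below the rest in all 36 genes, as it was in most expressed entries (11546, with 11978 measured at the start). Of the starts, the highest percents were 21.7 at Aars, 21.4 at Pars2, 21.3 at Tars2, 18.5 at Qars, 17.3 at Aars2 and 16.4 at Rars, and the lowest 0.0845 at Yars. Mars2, a gene without exon junctions, had 19.8% over the rest of its locus, from 32 CpGs, and Aars 61.0%. Read numbers behind the percents are not in the pooled file, so their depth is unknown.

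**Figure D4:**
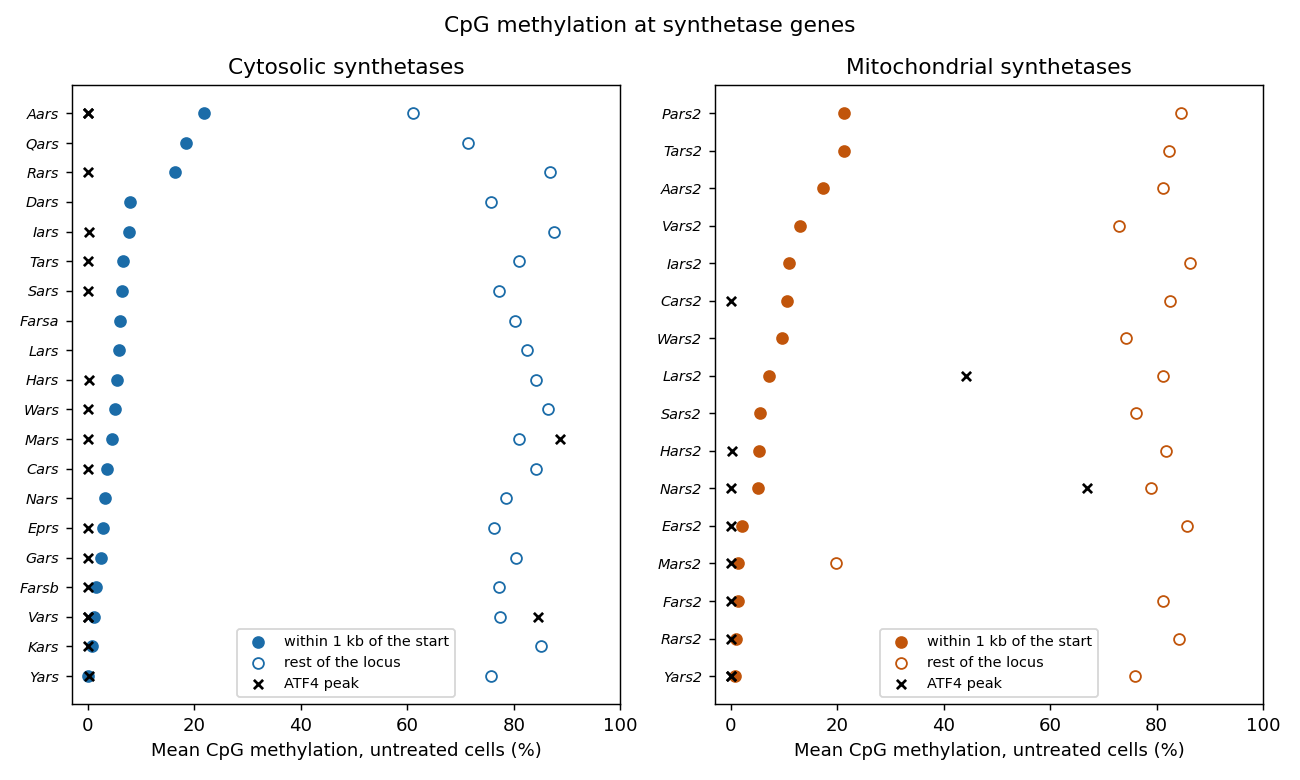
Mean CpG methylation in untreated cells, in percent, of cytosolic (left) and mitochondrial (right) synthetases, ordered by the value at the start; filled circles are CpGs within 1 kb of the start, open circles the rest of the locus and crosses single ATF4 peaks of treated cells. Crosses at starts lie at 0 to 0.231%, and the 4 crosses to the right belong to Mars, Vars, Nars2 and Lars2.

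Within the peaks themselves the starts were almost free of methylation. The 16 ATF4 peaks at cytosolic starts had means from 0 to 0.231% and the 9 at mitochondrial starts from 0.0326 to 0.231%. The peak shared by Hars and Hars2 is counted in both classes here and gives the highest value of each. CEBPB peaks at cytosolic starts ranged from 0 to 3.08% in the treated and from 0 to 8.79% (Aars) in the untreated list. The ATF4 peak at the 3′ end of Aars was also low, at 0.0714% over 98 CpGs. Other peaks in gene bodies away from starts were methylated to varying degrees in untreated cells. ATF4 peaks had 88.6% in the Mars intron (10 CpGs) and 84.5% in Vars (11 CpGs). Those of Nars2 and of the last exon of Lars2 had 67.0% (5 CpGs) and 44.2% (6 CpGs). CEBPB peaks of treated cells had 89.4% in an exon of Kars (8 CpGs) and 43.5% in the last exon of Lars2 (5 CpGs). Those of untreated cells had 20% (2 CpGs) and 60.6% (7 CpGs) in introns of Farsb and 36.1% in an intron of Fars2 (4 CpGs). Methylation was measured in untreated cells and ATF4 binding in treated cells, so whether the bound copies were methylated was not tested.

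Genes that work beside the synthetases were taken from a list of 22. Of these 2 were higher and 8 lower, against 6.02% and 28.2% of expressed entries, and the median change was -0.67. On the adjusted scale 4 were higher and 1 lower, against 12.0% and 10.1%. ATF4 peaks lay within 1 kb of 13 of the 22 loci, near the 53.2% of expressed entries. All 3 scaffold genes of the multisynthetase complex had one: Eef1e1 went from FPKM 13.6 to 36.8 (change 1.37), Aimp2 from 30.8 to 50.1 (0.68) and Aimp1 from 51.7 to 45.4 (-0.18). Prorsd1 went from 5.97 to 14.9. Trnt1, which adds the CCA end to tRNAs, went from 17.1 to 23.2. Of the genes that sense uncharged tRNA, Eif2ak4, the kinase GCN2, went from 6.20 to 0.876 and Gcn1l1 from 15.2 to 3.01. Both had an ATF4 peak at the start, and their adjusted changes, -0.60 and -0.81, were short of the threshold. Impact, of the same list, had a change of -0.84 and an adjusted change of -0.36. Pstk, a kinase of the selenocysteine route, went from 11.8 to 3.24 and Aarsd1 from 16.8 to 2.19, with adjusted changes of -0.87 and -0.57. Among tRNA delivery factors Eef1b2, Eef1d and the mitochondrial factor Tufm were lower, with changes of -1.10, -1.09 and -1.74. Of the 22 genes only Tufm was lower on the adjusted scale, at -1.06. Eef1a1 and Eef1g had changes of -0.26 and 0.26.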

How the data were processed

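RNA was sequenced in 1 untreated and 1 treated library, prepared with a TruSeq kit per the labels' protocols. Per the submitters' processing notes, CASAVA 1.8.2 and Bowtie were used for RNA, CASAVA 1.7, BWA and SAMtools for immunoprecipitation and CASAVA 1.8 and Novoalign for bisulfite reads, all on mm9. Not given in the sources used here were the program behind the expression values, the counting of strand, and the control and threshold of peak calling. The RNA tables hold FPKM with confidence bounds, as deposited by the authors. The peak lists hold a position and a score per peak, called per library and deposited by the authors, and scores ranked peaks only within a list. Methylation is the authors' percent per cytosine of a CpG, deposited as a pooled value over both bisulfite libraries, with no coverage given, so no coverage minimum could be set.

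From these, log2 changes with a pseudocount of 1 FPKM were computed. Fragments were implied from the bounds, taken as 2 standard errors from the value, and for entries with 3 to 200 fragments were whole within 0.05 in 74.1% (untreated) and 80.7% (treated). Ratio intervals are at the 95% level from those fragments. They cover counting error only, since reads copied by PCR are not independent molecules. Entries were matched to GENCODE vM1, with 21748 of 23583 placed. The junction-adjusted change is the change minus the median of entries in the same of 50 bins of junction density, using entries that reach FPKM 5 in either library. Copies were sought with blastn 2.17.0, in 100-bp windows every 50 bp with up to 3 mismatches. Both strands of a CpG were averaged, and 83035 entries marked heterozygous were left out. Sequences were read from the mm9 genome with pysam 0.24.0. The script was tested on simulated data.

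Every synthetase could be named, and full values were due for those past the threshold, the 3 highest and 3 lowest changes of each class, and those with a peak. The remaining marker sums, untreated and treated, were 41.7 and 5.92 for 6 melanocyte and Schwann cell genes, 12.9 and 1.52 for 4 adipocyte genes and 113 and 78.8 for 5 skeletal muscle genes. The members, the lists and the adjustment were chosen with earlier results of these data known. Some values that these rules take are not reported here. Alternatives tried were the pseudocount, the filter, the scaling, the windows around genes, the stricter part of each peak list and the handling of CpGs.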

Additional observations from a re-analysis of the deposited data

How the results depend on the processing

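Of 85 values recomputed under the alternatives, 48 kept their direction and stayed close to the value given above, 31 moved and 6 changed direction. The scaling had the largest part. With the median of expressed entries set to 0, the median change became -0.44 for cytosolic and 0.022 for mitochondrial genes, with 6 and 3 lower and 1 cytosolic gene higher. Set against genes of like junction density, the medians were 0.058 and 0.13, their difference (cytosolic minus mitochondrial) was -0.070, 1 and 2 genes were lower and 3 cytosolic genes higher. With the longest coding transcript for that density, an alternative chosen after seeing the data, the medians were 0.30 and 0.18, the difference 0.12, 1 and 2 genes lower, and 3 and 2 higher. With a minimum of FPKM 5 the mitochondrial median was -0.87 (10 genes) and the difference -0.084. Without members whose transcripts have near-identical copies the cytosolic median was -0.90, the difference -0.35 and 0 mitochondrial genes were higher. Without Lars2, also chosen after seeing the data, the difference was -0.38 and 0 were higher. CEBPB peaks at mitochondrial genes numbered 0 (untreated) and 1 (treated) within 1 kb of the start, and likewise 0 and 1 among the higher-scoring peaks of each list. CpG methylation at starts was 0.430% (cytosolic) and 0.969% (mitochondrial) within 500 bp, and 4.93% and 5.64% over CpGs listed on both strands. In the rest of the locus it was 81.5% and 81.5% without 2 kb around the start and 84.9% and 82.0% over CpGs listed on both strands. No paired analysis was possible because no groups share replicate numbers beyond single libraries. No replicate could be left out, since the bisulfite libraries are pooled. Depth limits the low mitochondrial genes most, with 157 fragments for Pars2 and 145 for Rars2 at the least.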
